A study of Mus musculus with 4 samples.

Results

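The clustered protocadherin genes of the mouse lie on chromosome 18 as 3 neighbouring families, Pcdha, Pcdhb and Pcdhg. Islands of acetylated lysine 16 of histone H4 (H4K16ac) were taken from the lists of both cell types wherever they overlapped positions 36950001 to 38050000 of mouse genome build mm9, a span of 1.1 Mb. This gave 54 islands of 88848 in all, 45 of 40570 in embryonic stem cells (ESC) and 9 of 48278 in neural progenitor cells (NPC). An island is a stretch in which neighbouring windows of 200 bp hold more ChIP reads than the background, joined across gaps of up to 600 bp. Islands entered by position alone, whatever their values, but the span itself was chosen with earlier results of these data known.

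The mark was mapped by ChIP-seq on chromatin cut with micrococcal nuclease (MNase). Undifferentiated cells of 46c, an ES cell line with GFP placed in the Sox1 gene, were compared with progenitors of the same line after 5 days of differentiation with NB27 and Neuro2 supplements. Sox1 is switched on in early neural cells, and the progenitors were sorted for GFP, so that they stand for the GFP-positive cells of 1 culture protocol. Both were treated with the same antibody, and each is represented by 1 ChIP library beside 1 library of MNase input. Differences between the cell types therefore have no replicates behind them, and no p-value was computed. Intervals of read ratios cover counting error only. Those of shares of islands and of medians treat neighbouring islands of 1 library as independent, and those of covered shares treat windows of 200 bp as independent. None of them covers differences between libraries. The total depth of the libraries is unknown, since the lists hold only reads inside islands, 17935144 in ESC and 24386370 in NPC.

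Protocadherins of these families are adhesion molecules at the surface of neurons. In Pcdha and Pcdhg, each large variable exon has its own promoter and is spliced to exons shared by the whole family, whereas Pcdhb genes consist of single exons without such shared exons. Each neuron switches on a small, partly random choice of these promoters, with the insulator protein CTCF and cohesin bringing promoters to distant enhancers, and the resulting combination lets a neuron tell its own branches from those of others. H4K16ac, laid down mainly by the acetyltransferase MOF, is found at active genes and enhancers. RefSeq lists 14 Pcdha genes, 22 Pcdhb genes and 22 Pcdhg genes, 1 of them a pseudogene (Pcdhgb8), on this chromosome, in that order from lower to higher positions. In RefSeq the mitochondrial carrier gene Slc25a2 and the transcription factor gene Taf7 lie between Pcdhb and Pcdhg. The gene after the last Pcdhg gene is Diaph1, which encodes an actin-assembling formin. That gene table is on another build (GRCm38.p6), so its order was used and its positions were not, and islands were not assigned to single genes or promoters. For the same reason the identity of the span as the protocadherin clusters rests on its given mm9 position.

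ESC had many H4K16ac islands in the span and NPC had few. The 45 ESC islands covered 121.2 kb, or 11.0% of the span (interval 10.2% to 11.9%). The 9 NPC islands covered 26.2 kb, or 2.38% (1.995% to 2.82%). ESC islands were thus 5 times as many and covered 4.63 times as many bases, although the NPC list as a whole was the longer one. The ESC islands held 12954 reads and the NPC islands 2126. Per 1000000 island reads of each list (RPM) these came to 722 and 87.2, a ratio of 8.29 (counting interval 7.91 to 8.68). Where no island was called, the mark can still be present at a level below the call.

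**Figure D1:**
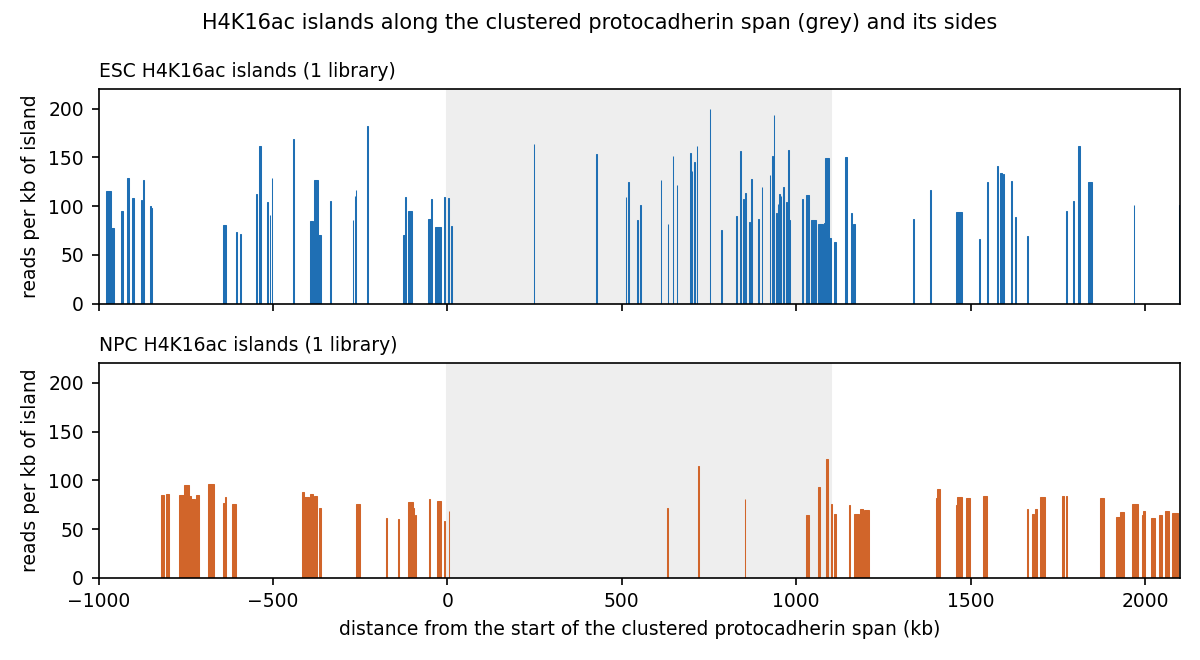
Islands of each list along the span (grey) and 1 Mb on each side, as bars from island start to island end. The horizontal axis is the distance from the start of the span in kb, and bar height is reads per kb of island, not scaled to depth. Within the grey span 45 ESC bars stand against 9 NPC bars, whereas the left side has 33 and 25 and the right side 21 and 29.

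The sides did not show this difference. In the 1 Mb before the span, 33 ESC islands covered 15.7% of bases and 25 NPC islands covered 19.6%. In the 1 Mb after it, 21 ESC islands covered 9.9% and 29 NPC islands covered 23.7%, with 1 further ESC island that crossed the edge counted in the span. NPC covered 1.25 times as many bases as ESC before the span and 2.39 times as many after it, against 0.216 times within it. By reads in islands, scaled to RPM, log2 NPC over ESC was -0.40 (-0.43 to -0.36) before the span, -3.05 (-3.12 to -2.98) within it and 0.25 (0.21 to 0.28) after it. Stretches without a called island added no reads to these sums, and the counting intervals do not cover reads missed there. In the 6 regions of the span called in both lists, the summed log2 was -1.60. The widest island of the left side was 16.8 kb in ESC (36915601 to 36932400, 1316 reads) and 17.2 kb in NPC (36264401 to 36281600, 1650 reads). On the right side these were 17.6 kb in ESC (38407401 to 38425000, 1661 reads) and 16 kb in NPC (39029201 to 39045200, 1062 reads). Wide NPC islands were therefore called on both sides of the span, and the widest NPC island inside it was 9 kb.

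Among all autosomal windows of the same length, the span had many ESC islands and few NPC islands. The autosomes were tiled into 2228 windows of 1.1 Mb, of which 2171 held an ESC island. Their medians were 15 ESC and 17 NPC islands, and 4.51% and 6.27% of bases covered. NPC covered less than ESC in 41.2% of these windows, and at most 0.5 times as much in 21.5% of them, so that a lower NPC value alone is common. The covered ratio of NPC over ESC was at or below that of the span (0.216) in 262 of the 2171 windows (12.1%), and the ratio of island numbers was at or below its 0.2 in 279 (12.9%). The span had 45 ESC islands, a number reached in 96 windows, itself included. The other 95 had at least 24 NPC islands, and a covered ratio of at least 0.422, against 9 islands and 0.216 in the span. The median of these 96 windows was 52 NPC islands and a covered ratio of 1.19. The cut for these windows was the span's own ESC count, and the tiling was laid so that the span filled 1 window. Windows with somewhat fewer ESC islands reached lower ratios, such as 39 ESC and 0 NPC islands on chromosome 13. The low NPC number was not rare by itself, since 38.0% of the 2171 windows had 9 NPC islands or fewer. Among the 868 windows with at least 20 ESC islands, a minimum chosen after seeing the data, 6 including the span had a ratio of island numbers at or below the 0.2 of the span.

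**Figure D2:**
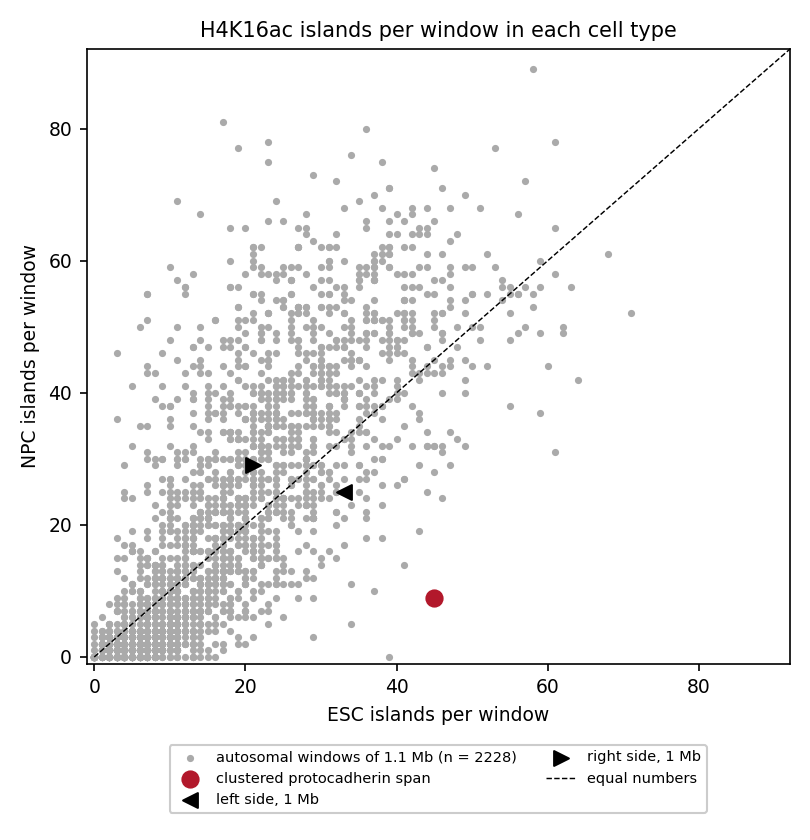
Number of islands per autosomal window of 1.1 Mb in ESC (horizontal axis) and NPC (vertical axis), 1 library each. Each grey point is a window, and the dashed line marks equal numbers. The span (red, 45 and 9) lies below all other windows with at least as many ESC islands, a limit that its own count sets. Both sides (triangles) lie near the line.

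Along the span the ESC islands were unevenly placed. The first 500 kb, up to 37450000, held 4 ESC islands and 1 NPC island, which covered 1.36% and 0.48% of bases. The next 500 kb, up to 37950000, held 34 ESC islands and 3 NPC islands, with 10.8% and 0.88% covered. The last 100 kb held 7 ESC and 5 NPC islands, with 60.2% and 19.4% covered. ESC coverage was higher than that of NPC in all 9 of the 11 bins of 100 kb with an island. The other 2 bins had none in either list. Among all autosomal bins of 100 kb with an island, 43.9% had more ESC coverage. Before the span 5 of 10 bins were higher in ESC, and after it 3 of 10.

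**Figure D3:**
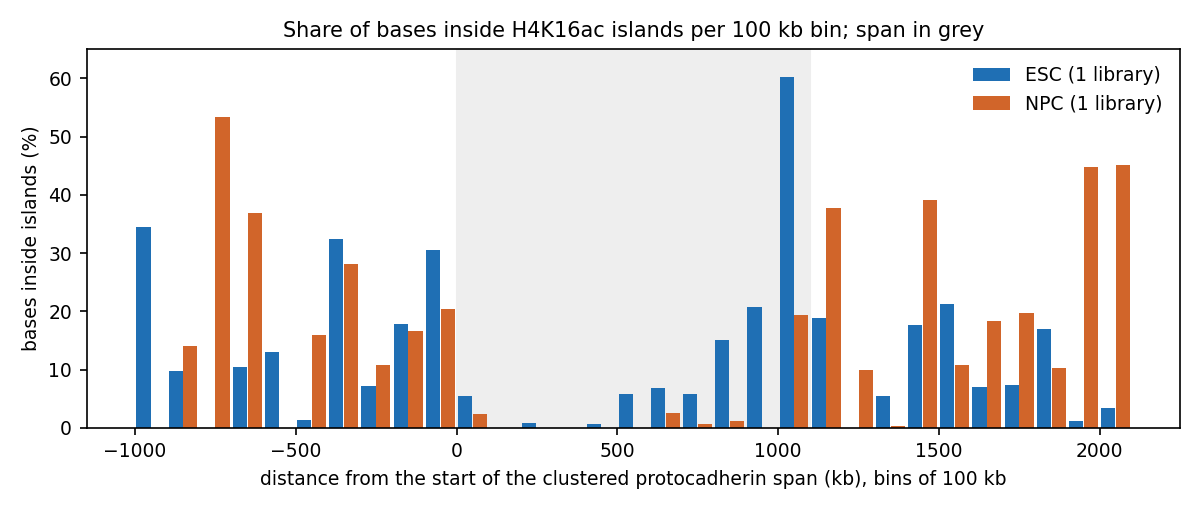
Percentage of bases inside islands in each bin of 100 kb, for ESC and NPC (1 library each), against distance from the start of the span in kb. ESC bars exceed NPC bars in 9 of 11 bins of the grey span, with the highest value (60.2% against 19.4%) in its last bin, and the other 2 bins are empty in both.

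The sparse first 500 kb began with a pair of ESC islands near its start, at 36952201 to 36955000 (304 reads) and 36959201 to 36961800 (208 reads). After these came 235.4 kb without an island of either list, up to 37197200. Of 39489 stretches between neighbouring autosomal ESC islands, 1980 were at least this long. Then followed 2 short ESC islands. The first, at 37197201 to 37198000, was 800 bp wide with 131 reads. The second, at 37377401 to 37378000, was 600 bp wide with 92 reads, the fewest of any ESC island in the span. Between them lay 179.4 kb, and after the second 83.8 kb, again without an island of either list. Neither had an NPC island within 200 kb. In NPC the first island of the span ended at 36956000 and the next began at 37581001, which left 625 kb without an island. That stretch held 8 ESC islands. Of 48151 stretches between neighbouring autosomal NPC islands, 510 were at least this long.

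From 37450001 to 37950000 the ESC islands formed a series of short, closely spaced peaks. Their widths ranged from 800 to 3400 bp with a median of 1200 bp, and the median distance from one to the next was 6.4 kb. Over the whole span the median distance was 6.3 kb, against 19.2 kb between neighbouring autosomal ESC islands. The NPC islands of the span were a median of 55.3 kb apart, against 8.4 kb on the autosomes. The bin of 100 kb with the most ESC islands was 37850001 to 37950000, where 13 began, which covered 20.8% of bases, and where no NPC island was called. In the last 100 kb of the span, the median distance from one ESC island to the next was 3 kb. Between the NPC islands at 37804200 and 37978601 lay 174.4 kb with 18 ESC islands and none of NPC. Only 24 of the 48151 autosomal stretches between neighbouring NPC islands held 18 or more ESC islands. This count has limits, since the stretch was the one of the span with the most ESC islands. Autosomal stretches were mostly far shorter, with a median of 8.4 kb and a median of 0 ESC islands inside. Stretches of like length were not compared.

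The ESC islands with the most reads stood at the end of the span. The island at 38032801 to 38042600 held 1462 reads over 9.8 kb, or 149 reads per kb. The one at 38011601 to 38027000 held 1254 reads over 15.4 kb and was the widest, and that at 37991601 to 38006200 held 1248 reads over 14.6 kb. The fourth, at 37978601 to 37987800, held 1022 reads over 9.2 kb. These 4 were the only islands of at least 8000 bp in the ESC list of the span. The fifth widest, of 5600 bp, crossed the edge of the span at 38044601 to 38050200 and had 379 reads. The fifth by reads was narrower, at 37925601 to 37929000, with 534 reads over 3.4 kb and 157 reads per kb. Whether the islands at the end belong to the last Pcdhg exons or to Diaph1, the next gene in RefSeq order, was not tested. Nor was it tested whether the first islands of the span, from 36952201, belong to Pcdha or to Zmat2, the coding gene before Pcdha1. Leaving out the last 100 kb, an option added once the values were known, 38 ESC islands stood against 4 NPC islands, and 6.1% of bases were covered against 0.68%, a ratio of 8.97.

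Densities were highest in the narrow ESC islands. The densest was at 37703201 to 37704000, with 160 reads over 800 bp, or 200 reads per kb. Next were 37885401 to 37886400 with 193 reads over 1000 bp, and 37197201 to 37198000 with 164 reads per kb. The island at 37665401 to 37666400 held 162 reads over 1000 bp, or 162 reads per kb. None of these 4 overlapped an NPC island. Of 6903 autosomal ESC islands at most 2000 bp wide with at least 120 reads per kb, 90.0% had none either. The fifth densest was the island at 37925601 described above.

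As a group, the ESC islands of the span were narrower than ESC islands at large. Their median width was 1800 bp (order-statistic interval 1000 to 2400 bp), against 3000 bp over 39508 autosomal ESC islands. In the span 16 of 45 (35.6%) were at most 1000 bp wide, against 10.2% on the autosomes. Median density was 111 reads per kb (104 to 127) in the span and 92.5 on the autosomes, with 105 in the left and 101 in the right side. Islands at most 2000 bp wide with at least 120 reads per kb, a class that earlier results of these data defined, made up 16 of the 45 (35.6%), against 17.5% of autosomal ESC islands. There were 2 of these in the left side and 0 in the right side, and none of the 16 in the span overlapped an NPC island. Islands of this class seldom did anywhere, as 90.0% of the 6903 on the autosomes had no NPC counterpart. By width class, the 16 islands of at most 1000 bp had a median of 134 reads per kb, against 139 for autosomal ESC islands of that width, and the 12 wider ones of up to 2000 bp had 104 against 111. The 12 above 2000 and up to 4000 bp had 106 against 86.9. The 1 above 4000 and below 8000 bp had 67.7 against 79.6, and the 4 of at least 8000 bp had 98.3 against 81.6.

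The NPC islands of the span were also narrow. Their median width was 1400 bp (1200 to 6600 bp), against 4200 bp on the autosomes and 7400 and 7000 bp in the left and right sides. Only 1 of 9 was at least 8000 bp wide, whereas 12 of 25 were in the left side and 13 of 29 in the right side. Median density was 80.8 reads per kb, against 76.6 on the autosomes. At most 2000 bp wide with at least 120 reads per kb were 2 of the 9 (22.2%). This share was 1.29% of autosomal NPC islands, and each side had 0 of them. Scaled to RPM, the median density in the span was 6.19 per kb in ESC and 3.32 per kb in NPC, against autosomal medians of 5.16 and 3.14. The cell types thus differed 1.87-fold in this scaled median density, 1.37-fold in the unscaled one and 4.63-fold in bases called. The scaled median density differed 1.75-fold in the left side and 1.94-fold in the right side, and the value of the span lies between these.

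**Figure D4:**
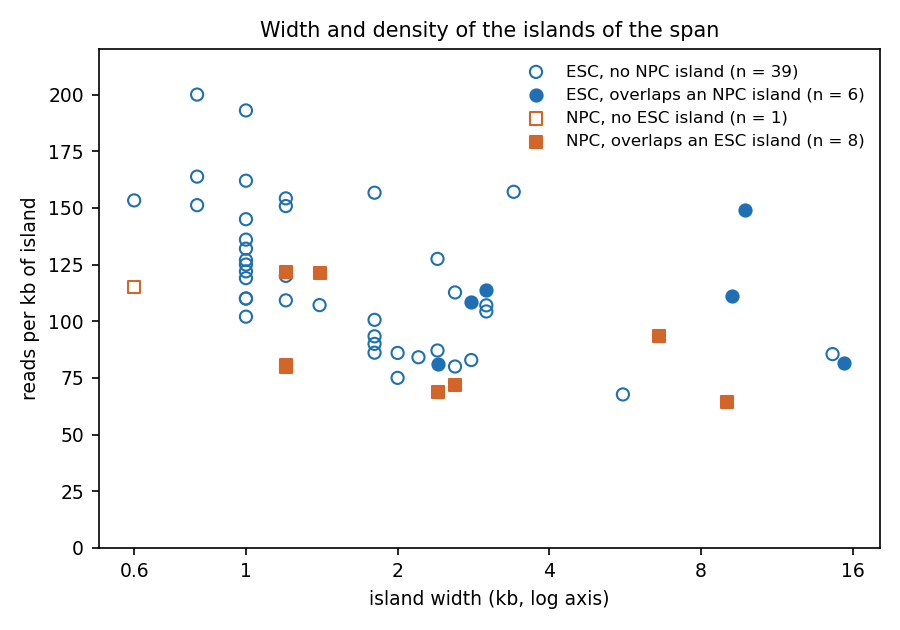
Each island of the span by width in kb (horizontal log axis) and reads per kb of island (vertical axis, not scaled to depth). ESC islands are circles, NPC islands squares, and filled symbols overlap an island of the other list. All 28 ESC islands of at most 2000 bp are open (on the autosomes 85.2% of such islands have no NPC counterpart), and the 6 filled circles are 2.4 kb wide or more.

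Most ESC islands of the span had no NPC counterpart, and most NPC islands lay on ESC ones. No NPC island overlapped 39 of the 45 ESC islands (86.7%), against 59.2% of all autosomal ESC islands. The other 6 were 13.3% (exact interval 5.05% to 26.8%), against 27.3% in the left and 28.6% in the right side. Width enters this share, since 75.3% of autosomal ESC islands of at most 4000 bp had no counterpart either. In the span 37 of 40 such islands had none, as 3 (7.5%) were overlapped. Of these 40, 28 were at most 2000 bp wide, a width at which 85.2% of autosomal ESC islands had none. Of the 5 islands wider than 4000 bp 3 were overlapped, against 69.0% on the autosomes. The 39 ESC islands without a counterpart held 64.7% of ESC island reads in the span. They lay a median of 46.4 kb from the nearest NPC island, with a range of 0.8 to 241 kb, and 32 of them were over 10 kb away. Such distances were not computed elsewhere, and they depend on the low number of NPC islands in the span. In NPC, 1 of 9 islands had no ESC counterpart, against 65.4% of autosomal NPC islands, and 93.1% of NPC island bases in the span were also in ESC islands. The same share was 28.6% in the left side, 13.4% in the right side and 32.2% on the autosomes. In reverse, 20.1% of ESC island bases in the span were in NPC islands, against 52.0% on the autosomes.

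Merging both lists gave 46 regions in the span. Of these, 39 were called in ESC only (84.8%, against 33.8% of autosomal regions), 1 in NPC only (2.17%, against 45.4%) and 6 in both. The left side had 24, 15 and 9 regions of these kinds, and the right side 15, 22 and 6. The region called in NPC only was at 37669601 to 37670200. It was 600 bp wide with 69 reads and lay 3.2 kb from the nearest ESC island, the dense one at 37665401 described above.

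All 6 regions called in both cell types held fewer NPC than ESC reads, also after scaling to RPM. Among 14434 autosomal shared regions 77.9% had a log2 NPC over ESC below 0, with a median of -0.49. In the span 5 of the 6 were at or below -1, a difference of at least 2-fold, against 28.0% on the autosomes, and their median was -1.40. This count depended on the scaling. It was 3 of 6 (autosomes 19.1%) when scaled by reads in shared regions, 2 of 6 (17.7%) with the median ratio of all shared regions set to 0, 2 of 6 (15.6%) per kb of called island and 0 of 6 (5.14%) per kb without scaling. Together they held 4578 ESC and 2057 NPC reads, a log2 of -1.60 (-1.67 to -1.52).

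The region nearest the start, 36952201 to 36956000, had 304 ESC reads over 2.8 kb and 165 NPC reads over 2.4 kb, a log2 of -1.33 (-1.61 to -1.05). The islands were offset, so that the NPC island began 1.4 kb after the ESC one and ran 1 kb past its end. The region at 37581001 to 37583600 was the most alike, with 195 ESC and 187 NPC reads over 2.4 and 2.6 kb and a log2 of -0.50 (-0.80 to -0.21). It was the only one of the 6 in which the NPC island was the wider. In the region at 37802201 to 37805200, 341 ESC reads over 3 kb stood against 97 NPC reads over 1.2 kb, a log2 of -2.26 (-2.60 to -1.93).

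The other 3 shared regions lay in the last 100 kb. At 37978601 to 37987800 the islands began at the same position and ended 200 bp apart, with 1022 ESC and 580 NPC reads and a log2 of -1.26 (-1.41 to -1.11). At 38011601 to 38027000 a single NPC island of 6.6 kb with 616 reads lay inside the ESC island of 15.4 kb with 1254 reads, a log2 of -1.47 (-1.61 to -1.33). At 38032801 to 38042600 the ESC island with the most reads of the span (1462) met 3 NPC islands of 1.2, 1.4 and 1.2 kb, 800 bp apart, with 146, 170 and 96 reads. The log2 there was -2.27 (-2.43 to -2.11). The first 2 of these 3 NPC islands were the densest of the list in the span, at 122 and 121 reads per kb. The ESC island between the first and the second of these regions, at 37991601, was 14.6 kb wide and had no NPC counterpart, the nearest being 4 kb away.

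By reads per kb of called island, scaled to RPM, the 6 regions ranged from -1.23 to -0.25 with a median of -0.92, against a median of -0.51 on the autosomes, where 98.4% of shared regions were below 0. On unscaled reads per kb, added once the values were known, 5 of 6 were below 0, against 60.5% on the autosomes. The exception was the region at 38011601, where ESC had 81.4 and NPC had 93.3 reads per kb, a log2 of 0.20. Reads in the uncalled parts of a region are not in the lists and are missing from these ratios.

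**Figure D5:**
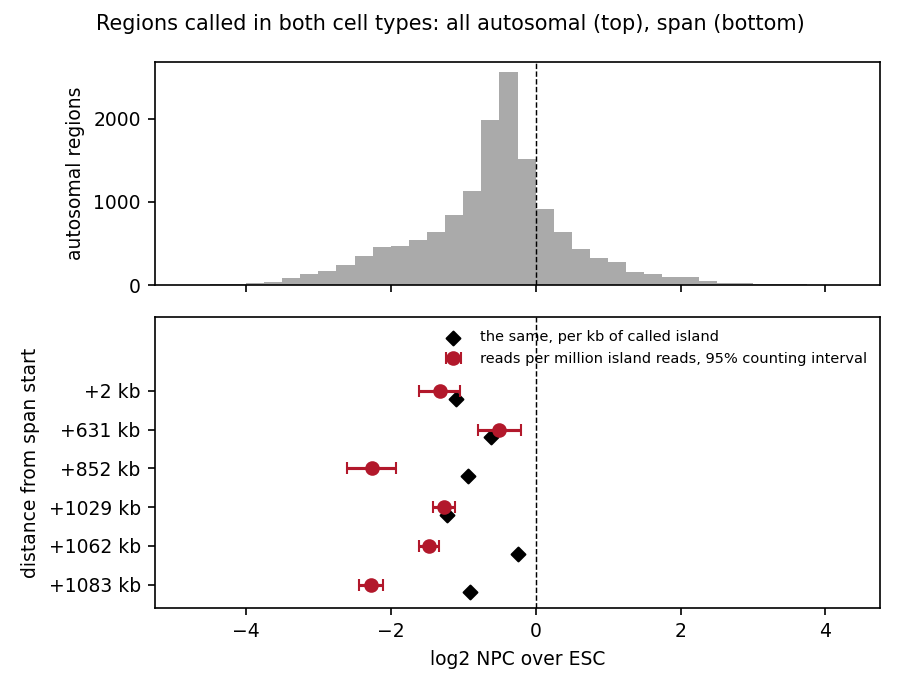
Upper panel: number of autosomal regions called in both cell types by log2 NPC over ESC of reads per 1000000 island reads. Lower panel: the 6 shared regions of the span by distance from its start, with the same value and its 95% counting interval (circles) and the value per kb of called island (diamonds). All 6 circles and diamonds lie below 0.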

How the data were processed

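The submitters' processing notes name build mm9 and the tools SICER 1.1, Bowtie 0.12.7, bedtools 2.10.1, CASAVA 1.8.2 and SAMtools 0.1.7. Per the names of the deposited lists, SICER ran with 200 bp windows, 600 bp gaps and an FDR of 0.01. The authors deposited for each island a whole number, read here as the count of ChIP reads, not scaled to depth or input. Removal of duplicates and the use of the input are not given in the sources used here. Positions were moved by 1 to count from 1, and 100% of islands then fitted the window grid.

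Islands overlapping the span by at least 1 base were members. Covered bases were clipped to the span, and reads of an island were shared among bins by length. Ratios have exact Clopper-Pearson 95% intervals, and medians order-statistic intervals. The span and the measures were chosen with earlier results of these data known. Named were all NPC islands and shared regions, the 5 ESC islands with most reads, the 5 widest and the 5 densest, the longest stretches without an island, and the widest island of each side. Further islands and stretches were described after their values were seen. Islands were not analysed by gene, for want of an mm9 annotation in this work. On simulated data from 39508 autosomal ESC islands, all 15789 counterparts were found with 0 false overlaps. The intervals held the simulated ratio in 95.6% of islands. Regions lowered 2-fold had a median log2 of -1.01, and those lowered 4-fold -2.02. The simulated reads had counting error alone and equal depth, and counterparts were laid inside ESC islands without island calling. It therefore checked the calculation and not the spread between libraries. Python 3.11.15, numpy 2.4.6, pandas 2.3.3, scipy 1.17.1 and matplotlib 3.10.9 were used.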

Additional observations from a re-analysis of the deposited data

How the results depend on the processing

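Under every setting run, ESC had more islands and more covered bases in the span than NPC, between 3.92 and 9.75 times as many islands and between 3.26 and 8.97 times as many bases. Of 70 recomputed summary values, 46 lay inside the reported interval, or within 1.5 times a reported count, and 24 did not. What caused these shifts was not tested, and stricter settings leave fewer islands by construction. No paired analysis was possible because each cell type has 1 library, and leaving out a replicate was not run for the same reason. The depth of the libraries is unknown, so islands found in 1 cell type alone cannot be set against the depth of the other.

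With the span moved inward by 50 kb, NPC islands numbered 4, and covered shares were 7.62% in ESC and 1.34% in NPC. Widened by 50 kb, these shares were 13% and 3.98%. With islands of at least the median reads, 13 ESC and 2 NPC islands covered 6.95% and 1.42%, and 100% of NPC islands were overlapped. That share was also 100% from 1000 bp and with equal list lengths, where NPC islands numbered 5. Leaving out the last 100 kb, an option added once the values were known, NPC islands numbered 4 and the covered shares were 6.1% and 0.68%. Median density per 1000000 island reads, a change of scale, was 6.19 in ESC and 3.32 in NPC. The summed log2 of the shared regions was -1.19 when scaled by reads in shared regions, -0.86 per kb of called island, -1.10 with the median ratio of all shared regions set to 0, -1.78 with gaps of 2000 bp merged and -1.35 without the last 100 kb. Per kb and not scaled to island reads, also added later, it was -0.42. Of 24 values of single shared regions under other scalings, 3 lay inside the reported interval, 20 outside it with the same sign, and 1 changed sign, that at 38011601, at 0.20 under that last scaling.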

Other observations

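A few other autosomal windows of 1.1 Mb combined many ESC islands with few NPC islands. These windows and the minimum of 20 ESC islands were chosen after seeing the data, and they are given by position alone. On chromosome 13, positions 65550001 to 66650000 held 39 ESC islands, which covered 10.5% of bases, and 0 NPC islands. On chromosome 4, positions 145850001 to 146950000 held 29 and 3 islands, with 11.3% and 0.382% covered. On chromosome 14, positions 42450001 to 43550000 held 34 and 5, with 10.2% and 1.13% covered. The other 2 windows with a ratio of island numbers below that of the span were at 47950001 to 49050000 on chromosome 16 (20 and 2 islands) and at 17150001 to 18250000 on chromosome 17 (21 and 3 islands). By covered ratio, 7 of the 868 windows with at least 20 ESC islands were at or below the span, itself included. Among these was 22650001 to 23750000 on chromosome 13 (37 and 10 islands, covered ratio 0.188). The copy number of sequence in these windows was not tested.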
